A study of Homo sapiens with 3 samples.

Results

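Translation initiation factors are the proteins that bring the initiator tRNA, the small ribosomal subunit and the capped mRNA together at the start codon. Their 42 genes, chosen by name from a fixed list of EIF symbols, were all found among the 35851 rows of a gene table from the human bladder cancer cell line 5637. Cells received an siRNA labelled siNC, taken here as the control (1 library), or an siRNA that targets MYBL2 (1 library labelled siMYBL2-1 and 1 labelled siMYBL2-2), and poly(A) RNA was sequenced to look for genes downstream of MYBL2, a MYB family transcription factor of late cell cycle genes. All 3 cultures were of genotype WT and went through lipid transfection. The labels give no siRNA sequence, dose or harvest time, and do not say whether -1 and -2 are different siRNAs or repeats, so both were taken as 2 samples of 1 group. The labels name no separate cultures either, so the spread between these samples may be technical, and a single cell line carries all results. In such bulk RNA, fewer cells of a type and less RNA per cell cannot be told apart.

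Initiation runs through a fixed series of steps. The factor eIF2 carries the initiator tRNA to the small subunit as a ternary complex with GTP, and eIF2B recharges eIF2 with GTP after each round. The large complex eIF3, with eIF1 and eIF1A, keeps the small subunit open for scanning, while eIF4F (the cap-binding protein eIF4E, the scaffold eIF4G and the helicase eIF4A) loads the mRNA. The 4E-BP proteins hold eIF4E inactive until mTOR phosphorylates them. Proliferating tumour cells make much protein, and eIF4E in particular is known as a dose-sensitive factor in cancer.

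Depth ran from 40259436 to 46177658 assigned reads. MYBL2 itself was at 211 RPKM in siNC, against 46.0 RPKM in siMYBL2-1 and 56.3 RPKM in siMYBL2-2 (reads per kilobase of exon and assigned reads of the library, scaled to 1000000 reads), 4.59-fold and 3.75-fold lower. All 10 urothelial and epithelial markers of the list were at or above 3.21 RPKM in every library, and their summed level was 2901, 3031 and 2402 RPKM in the same order. Within that list 4 were higher in both siMYBL2 libraries (40%, against 29.7% of all 13274 genes tested) and 4 lower in both (40%, against 36.4%). The other 2 went in opposite directions (against 33.9% of all genes tested). The median log2 ratios of the list were 0.51 and -0.32. KRT18 was 2.41-fold and 1.39-fold higher, and TP63 was at 0.421 and 0.845 times siNC. CDH1, 1 of the 2 in opposite directions, was at 2.45 and 0.608 times siNC. It had the largest gap between the siMYBL2 libraries among the 10 markers. By limma 0 of the 10 were called, against 0.00753% of all genes tested, and 1 had an unadjusted p under 0.05, against 4.71%. The part of these markers in the results below was not tested. Of 14 fibroblast, leukocyte and endothelial markers, COL1A1 and CD68 reached 1 RPKM in every library, the highest at 5.34 RPKM, while PTPRC and LYZ were at 0 in siNC and siMYBL2-1.

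The initiation factors were abundant and most of them were slightly higher after MYBL2 siRNA. Their share of all assigned reads was 1.01% for siNC, against 1.16% for siMYBL2-1 and 1.16% for siMYBL2-2. Of the 41 members whose mean over the libraries reached 1 RPKM, the minimum for the test, 26 (63.4%) were higher than siNC in both siMYBL2 libraries, against 29.7% of all 13274 genes tested. Only 5 (12.2%) were lower in both, against 36.4% of all genes tested, and 10 went in opposite directions, against 33.9%. Against siNC, the median log2 ratio of RPKM + 1 stood at 0.16 for siMYBL2-1 and 0.20 for siMYBL2-2, beside medians over all genes tested of -0.04 and -0.01. Among genes of at least 5 RPKM, a level closer to that of the members, the medians were 0.19 and 0.21 for 37 members and -0.02 and 0.02 for all 6353 genes. Both ratios have the siNC library as their denominator, so a deviation of that single library would move them together.

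The differences were small, and no member passed the test. By limma, with adjustment over all 13274 genes, 0 of 41 members were called in either direction, and 0.00753% of all genes were. MYBL2 itself, at a limma log2 difference of -2.03 ± 0.30 (SE, adjusted p 0.153), was not called either. A count of 0 therefore says little about differences as small as those of the members. The members' adjusted p lay between 0.999 and 1.00. At an unadjusted p of 0.05 the limma count was also 0 of 41, against 4.71% of all genes tested, and limma-voom on the recovered reads called 0 members as well. The mean log2 differences ran from -0.27 to 0.47, and their standard errors of 0.28 to 0.31 cover most of that range. With 2 libraries against 1, an exact permutation test of a single gene cannot go below a one-sided p of 0.333.

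**Figure D1:**
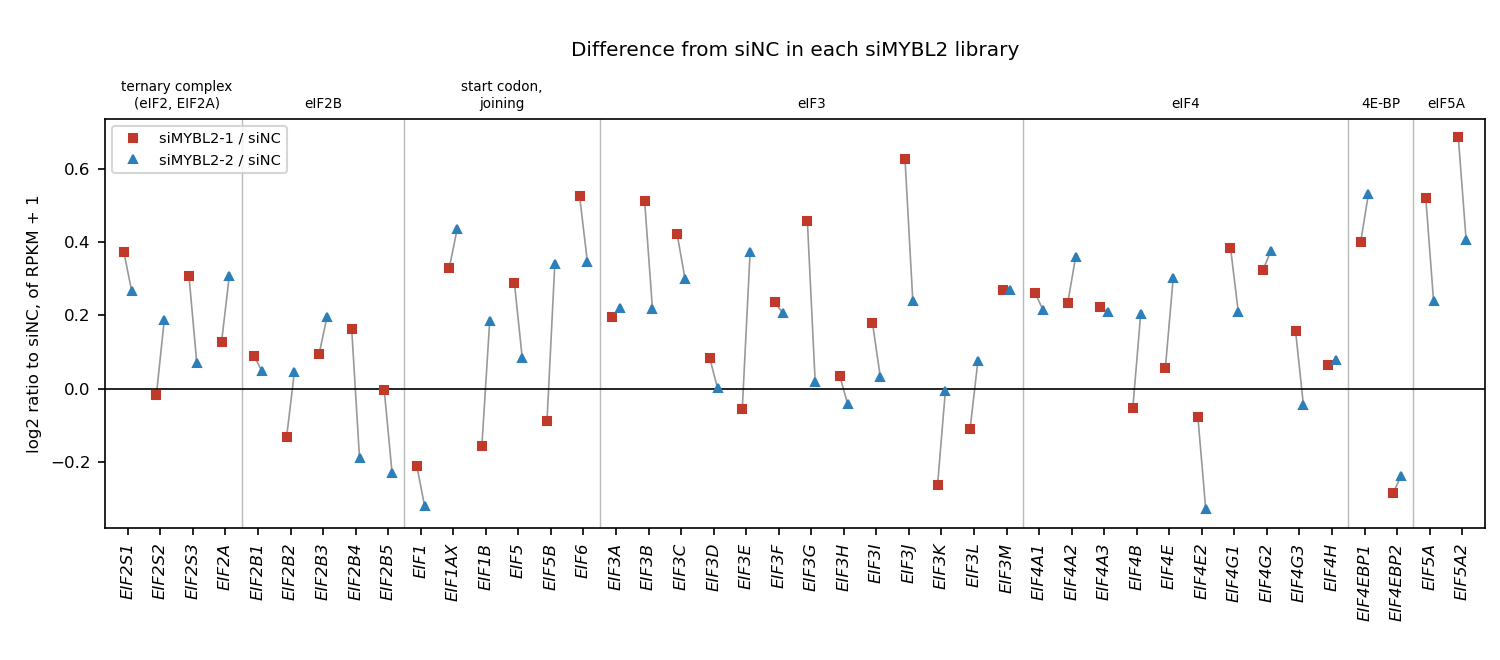
Log2 ratio of RPKM + 1 to siNC for each of the 42 genes, grouped by role, with squares for siMYBL2-1 and triangles for siMYBL2-2 (1 library each) joined by a line. Most pairs lie above 0, the highest being EIF5A2 at 0.69 in siMYBL2-1, and EIF1, EIF4E2 and EIF4EBP2 are among the few with both points below 0.

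By size, 7 members were at least 1.2-fold higher in both siMYBL2 libraries (17.1%, against 10.5% of all genes tested). These were EIF2S1, EIF1AX, EIF6, EIF3C, EIF3M, EIF4G2 and EIF4EBP1, from 5 of the 7 roles described below. EIF4EBP2 alone was at least 1.2-fold lower in both, against 14.6% of all genes tested. For 22 members (53.7%, against 43.0% of all genes) the mean log2 difference from siNC, in either direction, was larger than the gap between the siMYBL2 libraries. Of these 22, 20 were on the higher side, against 2531 of the 5703 genes tested whose difference was also larger than that gap. For 24 members (58.5%, against 37.2% of all genes) the counting intervals of both ratios excluded 1 on the same side. Of these, 21 were higher and 3 lower, against 2136 higher and 2796 lower among all 13274 genes tested. Intervals are narrower for abundant genes, and 38 of the 41 members lay above the median gene tested in siNC. The members and all genes were therefore not compared at like levels here. Counting error is small at these depths, and these intervals do not cover the variation between cultures.

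**Figure D2:**
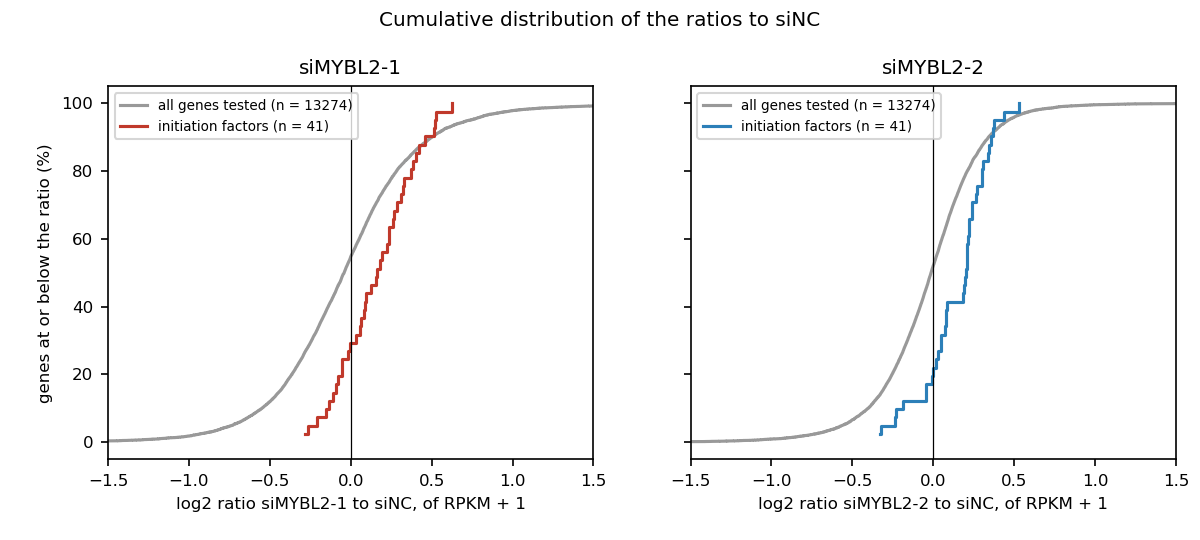
Share of genes at or below each log2 ratio to siNC, for siMYBL2-1 (left) and siMYBL2-2 (right), with all 13274 genes tested in grey and the 41 tested initiation factors in colour. In both panels the coloured curve crosses 50% to the right of the grey one, at medians of 0.16 and 0.20. It lacks the long tails of the grey curve, but holds far fewer genes, most of them above the median level.

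The members covered a wide range of levels. In siNC 34 of 42 were at or above 10 RPKM, and 38 of the 41 tested lay above the median gene tested (4.71 RPKM). The most abundant were EIF3A at 359 RPKM, EIF4H at 243 RPKM and EIF2S2 at 201 RPKM, and the least abundant was EIF5A2 at 0.222 RPKM. These levels depend on the exon length that the authors' table uses. That length was 1.00 to 4.47 times (median 1.53) the length of the longest principal transcript in GENCODE release 29, so a gene with many long minor exons, such as EIF4E2 with the highest ratio, gets a lower RPKM than its main mRNA would.

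**Figure D3:**
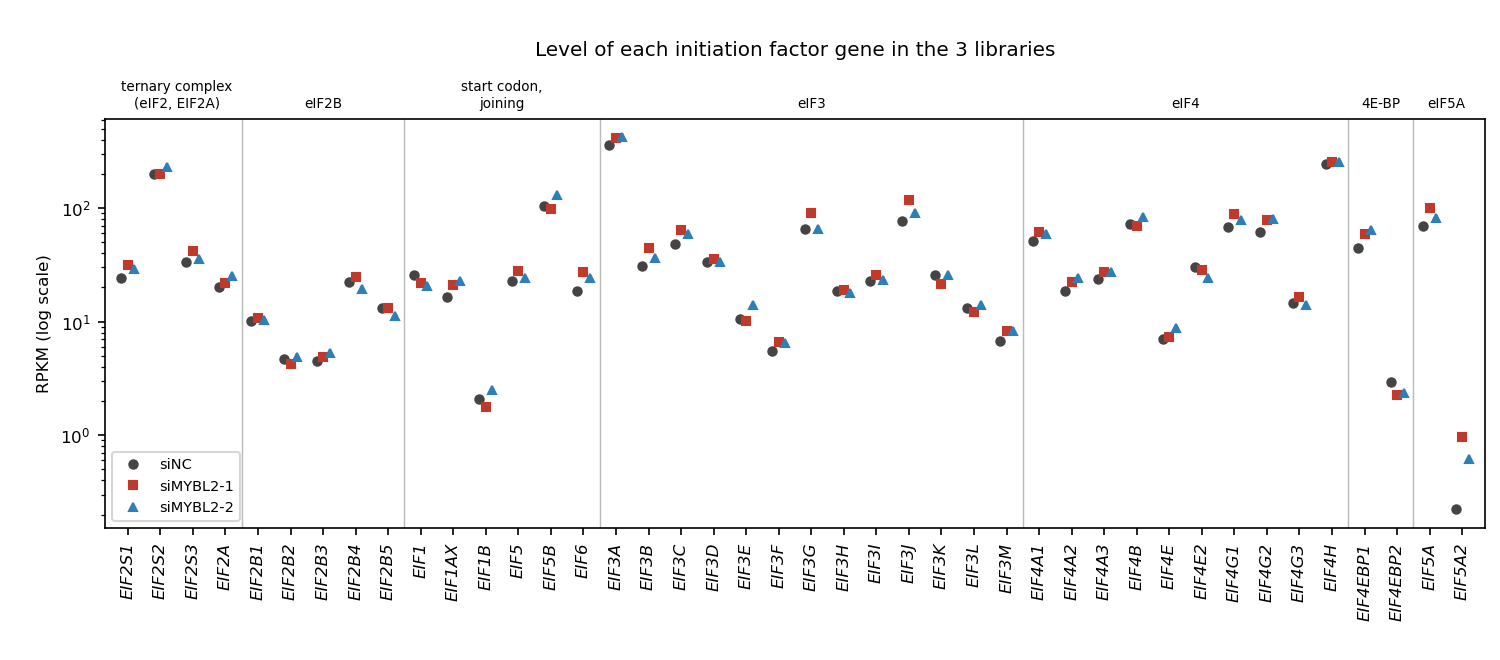
RPKM of the 42 genes on a log scale, by role, with a circle for siNC, a square for siMYBL2-1 and a triangle for siMYBL2-2 (1 library each). The genes span from 0.222 RPKM (EIF5A2 in siNC) to 419 RPKM (EIF3A in siMYBL2-2), and the 3 libraries of EIF5A2 stand farther apart on this scale than those of any other member.

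Promoter sequences were examined because many members lay on the same side of siNC in both libraries. RefSeq windows of 300 bases on GRCh38.p14, from 250 before to 50 after each annotated start, were at hand for 35 of the 42 genes. The E-box CACGTG, which reads the same on both strands and is bound by MYC with MAX and by the USF and TFE factors, was found in 10 of these 35 genes (28.6%), against 8.77% of 27305 genes and 7.26% of all 35116 promoter windows. It was in 7 of 24 genes that were higher in both siMYBL2 libraries (29.2%) and in 3 of the other 11 (27.3%), close shares whose difference was not tested. Both the 7 and the 24 include EIF5A2, which lay under the minimum for the limma test. All 13 sites are shown with 10 bases on either side, on the strand of the gene and 5′ to 3′, with the E-box in capitals.
EIF2B3: cagagggacaCACGTGtcgaatgctc
EIF1B: gcgggacggtCACGTGggaggggccg
EIF3F: agctctagctCACGTGgtgtatattc
EIF3K: aggaagaagtCACGTGgcagccggaa
EIF4A3: agttccctttCACGTGacgaagagtg
EIF4B: ccgctataatCACGTGattgcctcat
EIF4E, distal: acccatcggcCACGTGaccagtcctt
EIF4E, proximal: acatatccgtCACGTGgccagaagct
EIF4G1, distal: ctgtggctgtCACGTGacggggcggg
EIF4G1, proximal: ctgcgccggtCACGTGggggcgccgg
EIF4H: gccgccgcacCACGTGggctgcagag
EIF5A2, distal: taatccgcagCACGTGgggttgccag
EIF5A2, proximal: gggcgctcttCACGTGactgggcgga

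The 2 sites of EIF4E lie on the minus strand at chr4:98929343-98929368 and chr4:98929190-98929215, with the E-box starting 225 and 72 bases before the RefSeq start. Those of EIF4G1 lie on the plus strand at chr3:184314452-184314477 and chr3:184314529-184314554, and those of EIF5A2 on the minus strand at chr3:170908809-170908834 and chr3:170908784-170908809. The sites of EIF4A3 (chr17:80147234-80147259, minus), EIF3F (chr11:7987259-7987284, plus), EIF4H (chr7:74174147-74174172, plus), EIF2B3 (chr1:44986759-44986784, minus), EIF4B (chr12:53006424-53006449, plus), EIF3K (chr19:38619075-38619100, plus) and EIF1B (chr3:40309643-40309668, plus) are single. In 10 of the 13 sites the E-box was part of the longer TCACGTG on either strand (76.9%), against 51.0% of 2821 E-boxes in all windows. This longer form was looked at after the sites had been seen.

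Motifs linked to the cell cycle function of MYBL2 were searched in the same windows. The CHR element, searched as TTTGAA or TTCGAA on both strands, through which MuvB complexes bind late cell cycle promoters, was in 4 of 35 genes (11.4%, against 19.5% of all genes). The MYB site, searched as CAACTG or as CAACGG and also, with another first base, as TAACTG or as TAACGG on both strands, was in 7 of 35 (20.0%, against 29.8%). The CCAAT box of NF-Y, searched as CCAAT on both strands, was in 16 of 35 (45.7%, against 39.7%). A match in letters is a description of the window and says nothing of binding.

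The subunits of eIF2 differed in level. Of the 4 genes of the ternary complex group 3 were higher in both siMYBL2 libraries (75%, against 29.7% of all genes tested). EIF2S1 encodes the alpha subunit, whose phosphorylation by stress kinases stops most initiation. It was at 24.0 RPKM in siNC, against 31.4 RPKM in siMYBL2-1 and 29.1 RPKM in siMYBL2-2, 1.31-fold and 1.21-fold higher. EIF2S3, the tRNA-binding gamma subunit, was at 33.7, 41.95 and 35.4 RPKM in the same order, so that siMYBL2-2 lay near siNC. EIF2S2, the beta subunit, was at 201, 199 and 229 RPKM and went in opposite directions. EIF2A, a separate protein that can deliver initiator tRNA without being part of eIF2, was at 20.0, 21.9 and 25.0 RPKM, with its higher value in siMYBL2-2.

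The exchange factor eIF2B, the target of the integrated stress response, showed the smallest differences. Of its 5 subunit genes 2 were higher in both libraries, 1 was lower in both and 2 went in opposite directions. The shares of 40% higher and 20% lower stand beside 29.7% and 36.4% of all genes tested. The medians were 0.09 and 0.05, and no gene had counting intervals that excluded 1 on the same side in both libraries. The regulatory subunits EIF2B1 and EIF2B2 were at 10.0, 10.8 and 10.4 RPKM and, in the same order, at 4.72, 4.22 and 4.91 RPKM. EIF2B4, also regulatory, was at 22.2 RPKM in siNC, against 24.9 RPKM in siMYBL2-1 and 19.3 RPKM in siMYBL2-2. Its counting intervals (1.08 to 1.17 and 0.837 to 0.907) excluded 1 on opposite sides. The catalytic subunit EIF2B5 was at 13.3, 13.3 and 11.2 RPKM and its partner EIF2B3 at 4.54, 4.91 and 5.34 RPKM.

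Genes that act at the start codon and in subunit joining went several ways. EIF6, which keeps free large subunits from joining too early and takes part in their assembly, was at 18.7 RPKM in siNC, against 27.4 RPKM in siMYBL2-1 and 24.0 RPKM in siMYBL2-2. This is 1.46-fold (95% counting interval 1.36 to 1.57) and 1.29-fold (1.20 to 1.38), and limma put the log2 difference at 0.44 ± 0.29 (SE, adjusted p 0.999). EIF1AX, the X-linked gene of eIF1A, which holds the scanning complex open, was at 16.6, 21.1 and 22.8 RPKM, or 1.27-fold (1.21 to 1.34) and 1.37-fold (1.31 to 1.44), a limma log2 difference of 0.38 ± 0.29 (SE, adjusted p 0.999). Both siMYBL2 libraries lay above siNC for EIF6 and EIF1AX, and the siMYBL2 means were 25.7 ± 2.35 RPKM and 21.9 ± 1.19 RPKM (SD, n = 2). On hg38 EIF6 spans 35278907 to 35284985 of chromosome 20 and EIF1AX spans 20124518 to 20141844 of chromosome X, both on the minus strand.

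EIF1, the partner of eIF1A that guards start codon choice, had the opposite sign. It was at 25.7 RPKM in siNC, against 22.1 RPKM in siMYBL2-1 and 20.4 RPKM in siMYBL2-2, 0.859 times (0.820 to 0.900) and 0.793 times (0.756 to 0.830) siNC, and limma put the log2 difference at -0.27 ± 0.29 (SE, adjusted p 0.999). Its paralog EIF1B was at 2.09, 1.78 and 2.51 RPKM on 142 to 222 reads, and both its counting intervals included 1 (0.673 to 1.07 and 0.977 to 1.48). Its limma log2 difference was 0.01 ± 0.29 (SE, adjusted p 1.00). EIF5, which activates the GTPase of eIF2, was at 22.8, 28.0 and 24.2 RPKM. EIF5B, the GTPase of subunit joining, was at 104 RPKM in siNC, against 97.3 RPKM in siMYBL2-1 and 131 RPKM in siMYBL2-2, so that the siMYBL2 libraries lay on opposite sides of siNC.

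Of the 13 eIF3 subunit genes, 9 were higher in both siMYBL2 libraries (69.2%, against 29.7% of all genes tested). Another 1 was lower in both (7.69%, against 36.4%) and 3 went in opposite directions. The median log2 ratios of the 13 genes were 0.19 and 0.21. The whole complex took 0.423% of the siNC reads, against 0.508% for siMYBL2-1 and 0.486% for siMYBL2-2. EIF3A, the largest subunit and scaffold of the complex, was at 359, 411 and 419 RPKM, with nearly equal siMYBL2 libraries at a mean of 415 ± 5.27 RPKM (SD, n = 2). It was 1.15-fold and 1.17-fold higher. EIF3A alone lay 65.9-fold above EIF3F per length in siNC, although both proteins are subunits of the same complex.

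EIF3J and EIF3B had larger differences in siMYBL2-1 than in siMYBL2-2. EIF3J, a loosely bound subunit near the mRNA entry channel, was at 76.5 RPKM in siNC, against 119 RPKM in siMYBL2-1 and 90.5 RPKM in siMYBL2-2, 1.55-fold (1.51 to 1.59) and 1.18-fold (1.15 to 1.21). By limma the log2 difference was 0.43 ± 0.31 (SE, adjusted p 0.999). EIF3B, a scaffold that binds EIF3G and EIF3I, was at 31.1, 44.8 and 36.4 RPKM, 1.44-fold (1.41 to 1.47) and 1.17-fold (1.14 to 1.20), with 0.37 ± 0.30 for the limma log2 difference (SE, adjusted p 0.999). EIF3G, which has an RNA recognition motif, had the largest gap of all members between the siMYBL2 libraries, at 65.2 RPKM in siNC, against 89.9 RPKM in siMYBL2-1 and 66.0 RPKM in siMYBL2-2. Only the siMYBL2-1 library stood above siNC beyond its counting interval, at 1.38-fold (1.34 to 1.42), while siMYBL2-2 was at 1.01-fold (0.985 to 1.04). The limma log2 difference of EIF3G was 0.24 ± 0.31 (SE, adjusted p 0.999). EIF3I, a propeller-shaped subunit of the same module, was at 22.7, 25.8 and 23.2 RPKM.

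EIF3C, the other core scaffold, cannot be told apart from its near-identical copy EIF3CL. Of the stretches of 50 bases in the main transcript of EIF3C, 96.8% also occur in transcripts of EIF3CL. EIF3C was at 47.9, 64.4 and 59.2 RPKM in that order of libraries and EIF3CL, with a shorter deposited exon length of 3091 bases against 6982, at 224, 288 and 257 RPKM. Their summed reads numbered 41353 in siNC, against 56066 and 55817 in siMYBL2-1 and siMYBL2-2, at equal depth 1.31-fold (1.29 to 1.32) and 1.18-fold (1.16 to 1.19) higher. EIF3C alone was 1.35-fold (1.32 to 1.38) and 1.24-fold (1.21 to 1.26) higher, so the sum lay nearer to siNC and on the same side. For EIF3C alone limma put the log2 difference at 0.36 ± 0.29 (SE, adjusted p 0.999).

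The remaining eIF3 subunits, apart from EIF3E, lay within 1.24-fold of siNC. EIF3M, a PCI domain subunit, was at 6.72, 8.30 and 8.31 RPKM, the smallest gap of all members between the siMYBL2 libraries. EIF3F, an MPN domain subunit, was at 5.46, 6.61 and 6.45 RPKM, and its partner EIF3H at 18.6, 19.0 and 18.0 RPKM. EIF3D, which can bind the cap of some mRNAs, was at 33.2, 35.3 and 33.3 RPKM. The peripheral subunits EIF3K and EIF3L were at 25.8, 21.3 and 25.7 RPKM and, in the same order, at 13.2, 12.1 and 13.9 RPKM, and only 48.2% of the exonic bases of EIF3L belong to no other row. EIF3K was 0.827 times (0.784 to 0.873) and 0.995 times (0.947 to 1.05) siNC, so that only siMYBL2-1 stood below it beyond counting error, with a limma log2 difference of -0.13 ± 0.29 (SE, adjusted p 0.999). EIF3E was at 10.6 RPKM in siNC, against 10.2 RPKM in siMYBL2-1 and 14.0 RPKM in siMYBL2-2, high in siMYBL2-2 alone.

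Of the 10 genes of the cap-binding, scaffold and helicase group, 7 were higher in both siMYBL2 libraries (70%, against 29.7% of all genes tested). Another 1 was lower in both (10%, against 36.4%) and 2 went in opposite directions. The medians of the 10 genes were 0.19 and 0.21. EIF4G1, the main scaffold that joins the cap-binding protein to eIF3, was at 67.6 RPKM in siNC, against 88.6 RPKM in siMYBL2-1 and 78.3 RPKM in siMYBL2-2, 1.31-fold (1.29 to 1.33) and 1.16-fold (1.14 to 1.18). Its paralog EIF4G3 was at 14.6, 16.4 and 14.1 RPKM and went in opposite directions, at 1.12-fold (1.08 to 1.16) and 0.968 times (0.934 to 1.00) siNC. The limma log2 differences were 0.30 ± 0.29 for EIF4G1 and 0.06 ± 0.29 for EIF4G3 (SE, adjusted p 0.999 for both). EIF4G2, a related scaffold that lacks the site for eIF4E, was at 62.1, 78.0 and 80.8 RPKM, 1.26-fold (1.23 to 1.28) and 1.30-fold (1.28 to 1.32), and limma put the log2 difference at 0.35 ± 0.29 (SE, adjusted p 0.999). The gap between the siMYBL2 libraries was small for EIF4G2, with a mean of 79.4 ± 2.01 RPKM (SD, n = 2).

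The cap-binding paralogs went in different directions. EIF4E, the factor that binds the cap, was at 6.99, 7.31 and 8.86 RPKM in that order of libraries, 1.05-fold and 1.27-fold, while EIF4E2, a cap-binding protein that represses translation, was at 30.4, 28.7 and 24.0 RPKM, 0.945 times and 0.789 times siNC. The difference in siMYBL2-2 was the larger for both genes. Counting intervals were 1.00 to 1.09 and 1.22 to 1.32 for EIF4E and 0.917 to 0.974 and 0.765 to 0.813 for EIF4E2. By limma the log2 differences were 0.18 ± 0.29 for EIF4E and -0.20 ± 0.29 for EIF4E2 (SE, adjusted p 0.999 for both). Their level ratio EIF4E to EIF4E2 per deposited length was 0.230, 0.255 and 0.369, which was not tested, and TIGD1 shares 31.6% of the 50-base stretches of the EIF4E2 transcript.

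Both helicase genes were higher in both siMYBL2 libraries. EIF4A1, the main helicase, was at 51.1, 61.4 and 59.4 RPKM (1.20-fold and 1.16-fold) and EIF4A2 at 18.7, 22.1 and 24.2 RPKM (1.19-fold and 1.30-fold), with log2 differences of 0.24 ± 0.29 and 0.30 ± 0.29 by limma (SE, adjusted p 0.999 for both). For EIF4A1 only 54.0% of the exonic bases belong to no other row, since the read-through row SENP3-EIF4A1 overlaps it on the same strand. EIF4A3, a related helicase of the exon junction complex rather than of initiation, was at 23.5, 27.6 and 27.3 RPKM. The helicase cofactors EIF4B and EIF4H were at 72.4, 69.8 and 83.5 RPKM and, in the same order, at 243, 254 and 256 RPKM, EIF4H being the second most abundant member and within 1.06-fold of siNC.

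The 4E-BP genes EIF4EBP1 and EIF4EBP2 had opposite signs. EIF4EBP1 had the largest mean log2 difference of all tested members, at 44.4 RPKM in siNC, against 58.9 RPKM in siMYBL2-1 and 64.6 RPKM in siMYBL2-2, or 1.33-fold (1.25 to 1.41) and 1.46-fold (1.38 to 1.54). By limma its log2 difference was 0.47 ± 0.29 (SE, adjusted p 0.999), and the unadjusted p of 0.138 was the smallest of the 41. EIF4EBP2 was at 2.97, 2.26 and 2.36 RPKM, 0.761 times (0.687 to 0.842) and 0.796 times (0.722 to 0.878) siNC, and limma put the log2 difference at -0.26 ± 0.28 (SE, adjusted p 0.999). The level of EIF4EBP1 was 14.9 times that of EIF4EBP2 in siNC, 26.1 times in siMYBL2-1 and 27.3 times in siMYBL2-2, a ratio whose change was not tested. EIF4EBP3, the remaining 4E-BP gene and not a member, was at 1.62, 1.21 and 1.13 RPKM on 35 to 45 reads, also on the lower side, with counting intervals that included 1. On hg38 EIF4EBP1 lies on chromosome 8 from 38030341 to 38060365 and EIF4EBP2 on chromosome 10 from 70404379 to 70428618, both on the plus strand. EIF4EBP1 shares no stretch of 50 bases with another gene, and 100% of the exonic bases of both genes belong to no other row.

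**Figure D4:**
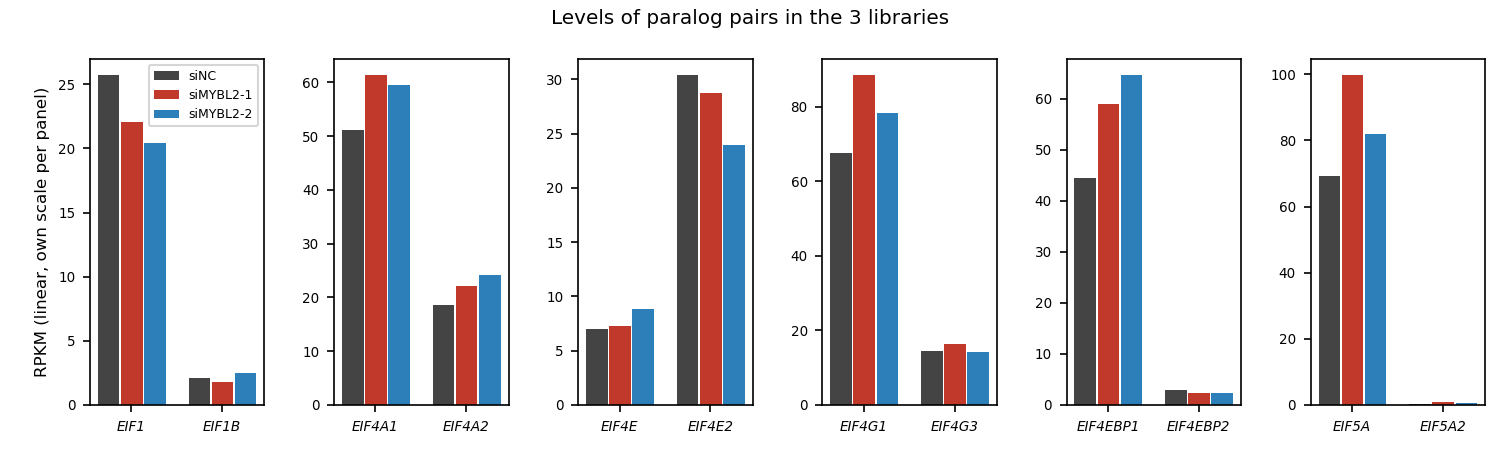
RPKM of 6 paralog pairs in siNC, siMYBL2-1 and siMYBL2-2 (1 bar per library, no error), each panel on its own linear scale from 0. EIF4EBP1 is higher and EIF4EBP2 lower in both siMYBL2 libraries, EIF1 is lower in both, and the minor paralogs EIF1B, EIF4EBP2 and EIF5A2 stay under 3 RPKM.

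The eIF5A genes, whose product carries the hypusine modification and relieves stalled ribosomes, were higher in both siMYBL2 libraries. EIF5A was at 69.2 RPKM in siNC, against 99.8 RPKM in siMYBL2-1 and 81.8 RPKM in siMYBL2-2, 1.44-fold (1.40 to 1.48) and 1.18-fold (1.15 to 1.22), and limma put the log2 difference at 0.38 ± 0.30 (SE, adjusted p 0.999). The similar gene EIF5AL1 shares 30.1% of the 50-base stretches of EIF5A and was itself at 0.116, 0.243 and 0.237 RPKM. EIF5A2, an isoform gene amplified in some carcinomas, had the largest fold of all members on few reads. It had 50 reads (0.222 RPKM) in siNC, against 226 (0.966 RPKM) in siMYBL2-1 and 160 (0.620 RPKM) in siMYBL2-2, 4.35-fold (3.19 to 6.04) and 2.79-fold (2.02 to 3.91). The gene spans 170888415 to 170908693 of chromosome 3 on the minus strand (hg38). It lay under the minimum of 1 RPKM and so was not among the genes tested. It entered the fit with all genes kept, where 0 of 42 members had an unadjusted limma p under 0.05. Rescaled to TPM, where it also entered the fit, its unadjusted limma p was 0.0472 and its adjusted p 1.00. In that TPM fit 662 of all 16742 genes had an unadjusted p under 0.05. Its mean reached the TPM minimum mainly through the siMYBL2 libraries, so this p is no support for a difference.

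The siMYBL2 libraries also differed from each other, in these genes as in most genes tested. The counting interval of siMYBL2-1 against siMYBL2-2 excluded 1 for 34 of the 41 members (82.9%, against 70.0% of all genes tested). Among genes of at least 5 RPKM, whose intervals are narrower, it did so for 32 of 37 members (86.5%, against 79.5% of all such genes). By direction, 22 members were higher in siMYBL2-1 (53.7%, against 47.6% of all genes tested) and 19 in siMYBL2-2. Of the 10 members on opposite sides of siNC, 7 were lower in siMYBL2-1 and higher in siMYBL2-2 (EIF2S2, EIF2B2, EIF1B, EIF5B, EIF3E, EIF3L and EIF4B) and 3 were the reverse (EIF2B4, EIF3H and EIF4G3). These members are named for their sign alone.

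The counts were similar among genes with little shared sequence. Without the 15 members that overlap another row in over 10% of their exonic bases or share at least 10% of their 50-base stretches, 18 of 26 tested members were higher in both (69.2%), 4 were lower in both (15.4%), and the medians were 0.19 and 0.20.

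Other genes of the pathway lay nearer to the background, although they too were more often higher than lower. In 7 lists of regulators, accessory factors, elongation and release genes and stress targets, 53 genes were tested. Of these, 21 were higher in both siMYBL2 libraries (39.6%, against 29.7% of all genes tested) and 12 lower in both (22.6%, against 36.4%). Another 20 went in opposite directions, and the medians of the 53 were 0.03 and 0.02. The difference between these genes and the members was not tested. By limma 0 of the 53 were called, against 0.00753% of all genes tested, and 0 had an unadjusted p under 0.05, against 4.71%. Accessory factors of initiation and recycling had 7 of 12 genes higher in both (58.3%) and 1 lower in both (8.33%), shares near those of the members, the largest being ABCE1, the ribosome recycling ATPase, at 11.1, 14.5 and 16.5 RPKM. PDCD4, an inhibitor of eIF4A, was the lowest of them at 10.9 RPKM in siNC, against 3.89 RPKM in siMYBL2-1 and 8.90 RPKM in siMYBL2-2.

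Among 8 tested initiation factor genes and eIF2 kinases left out of the members, 4 were higher in both (50%, against 29.7% of all genes tested). EIF3CL had the largest mean ratio, and 3 were lower in both (37.5%, against 36.4%). EIF2AK3 (PERK), the eIF2 kinase of the endoplasmic reticulum, was lowest at 4.42, 2.94 and 3.03 RPKM. Of 12 tested genes of mTOR and MNK signalling 2 were higher in both (16.7%) and 5 lower in both (41.7%, near the 36.4% of all genes). MLST8, a subunit of the mTOR complexes, was at 3.59, 5.07 and 3.79 RPKM and the eIF4E kinase gene MKNK1 at 4.30, 3.46 and 3.84 RPKM. The 5 genes of the eIF2 phosphatase lay between PPP1CC at 2.43, 2.99 and 2.68 RPKM and PPP1CA at 16.8, 15.2 and 14.0 RPKM, both catalytic subunits. Of the 5, 2 were higher and 2 lower in both (40% each).

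Of 10 genes listed under elongation and release 4 were higher in both (40%, against 29.7% of all genes tested) and 1 lower in both (10%, against 36.4%). The list also holds EEF1E1 and EEF2K, which are not themselves elongation or release factors. At the ends were EEF1E1 at 3.08, 4.07 and 5.76 RPKM and EEF1A2, an elongation factor isoform of muscle and neurons, at 1.67, 0.691 and 2.22 RPKM. The hypusine enzyme genes DOHH and DHPS were at 3.14, 4.66 and 3.51 RPKM and, in the same order, at 12.8, 13.2 and 10.0 RPKM. The last list held 8 genes, ATF4, the factor translated when eIF2 is phosphorylated, and its targets. Only 4 reached the minimum for the test, ATF4 itself among them. Of these 1 was higher in both (25%, against 29.7% of all genes tested) and 0 lower in both (against 36.4%). ATF4 was at 72.7, 86.8 and 69.2 RPKM, SESN2 at 1.59, 1.97 and 2.40 RPKM and PSAT1 at 5.09, 4.07 and 6.05 RPKM.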

How the data were processed

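RNA-seq of 3 libraries of 5637 cells was analysed from 1 table of RPKM values deposited by the authors, with exon intervals and exonic length per row on hg38. The submitters' processing notes list HISAT2 2.0.4, StringTie 1.3.4d and cutadapt 1.9. How reads were counted, by which strand rule and on which gene models is not given in the sources used here. Multiplying each RPKM by its length gave whole read numbers, after division by the library's step, for 100% of values (tolerance 0.001 reads).

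The test was limma-trend (limma 3.58.1, R 4.3.3), applied to log2(RPKM + 1) of the 13274 genes whose mean over the libraries reached 1 RPKM, siMYBL2 (n = 2) against siNC (n = 1), Benjamini-Hochberg over all genes, threshold 0.05, tested first on simulated data. It has 1 residual degree of freedom, so siNC, with 1 library, borrows the spread of the siMYBL2 samples. Folds are plain RPKM ratios with exact conditional binomial intervals (95%), which cover only counting error: without molecular identifiers, reads may be copies of 1 molecule. Log2 values understate changes of low genes. At these depths 3 reads on 1 kilobase correspond to 0.0650 to 0.0745 RPKM. RPKM is relative to the library's total, so genes do not move independently.

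Full values are given for the 8 highest and 4 lowest members with the same sign in both libraries, the member with the largest gap between them, and 6 paralog pairs; in the other lists the highest and lowest tested gene. Members and lists were chosen with earlier results of these data known. The values of 1 marker gene are not reported here. Promoter windows are from RefSeq (GRCh38.p14); shared stretches are from GENCODE release 29 transcripts. Alternatives changed the pseudocount, filter, scaling, gene set, test and libraries.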

Additional observations from a re-analysis of the deposited data

How the results depend on the processing

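No member passed under any of the 7 other fits run, and all 131 values of the 19 tested members given in full kept their sign in them. Genes called over the whole table numbered 1, became 0 in 4 fits (all genes kept, a 5 RPKM minimum, scaling by the median of ratios, TPM) and 10 by limma-voom. Rescaling to TPM moved the siMYBL2-2 median of the members to 0.29 (all genes 0.04) and left 3 members lower in both libraries, and the 5 RPKM minimum gave a siMYBL2-1 median of 0.19. The causes were not tested. With 1 siMYBL2 library left out, no test is possible, as no residual degree of freedom is left. In siMYBL2-1 alone 29 of 41 members were then on the higher side of siNC and 12 on the lower side. In siMYBL2-2 alone these numbers were 33 and 8. The median log2 ratios of all genes tested were -0.04 in siMYBL2-1 and -0.01 in siMYBL2-2, and their counts by side were not made for single libraries. In the same way EIF4G3 ranged from -0.044 to 0.16 and EIF1B from -0.16 to 0.18 on the log2 scale, and both changed sign. No paired analysis was possible because siNC has 1 library without a replicate number. Depth limits EIF1B and EIF5A2, with at most 226 reads in a library.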
